A study of Rattus norvegicus with 24 samples.

Results

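The miRNAs described here are the high-numbered ones of the rat, those whose name carries a number of 1000 or more. Both count tables listed the same 728 rat miRNAs, and 117 of them met this rule once miR-1193 and miR-3594 had been set aside. The other 611 were miR-1193, miR-3594, the let-7 family and all miRNAs with lower numbers. The libraries came from adult male Sprague-Dawley rats 3 months after surgery. Sham rats had the same operation without an injury, and TBI rats received lateral fluid percussion, a head injury made by a brief pressure wave of saline against the dura. The 6 TBI rats had been selected from a larger cohort for chronic perilesional inflammation seen by MRI, so they stand for that endophenotype and not for all injured rats. Each of the 12 rats gave 1 library of perilesional cortex and 1 of ipsilateral thalamus, which made 24 libraries in 4 groups of 6. The sum of miRNA counts, used here as the depth, was at least 744564 and at most 4069284 reads in cortex libraries, and lay between 523298 and 4139901 reads in those of thalamus.

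miRNAs are short RNAs cut from a hairpin precursor, and they lower the output of mRNAs that pair with their seed, the bases near the 5′ end. Their numbers are given in the order in which they are registered in the miRNA database miRBase. A high number therefore marks a late registration, often from deep sequencing, of a weakly expressed or lineage-restricted miRNA, and many of these names are known from rodents alone. Neither evolutionary age nor conservation was measured in these libraries, so the common label of young miRNAs was not tested, and the set is called by its numbers. Some high-numbered miRNAs derive from introns, such as those in Htr2c, which encodes a serotonin receptor that is abundant in the choroid plexus. Others derive from small nucleolar or Cajal body RNAs or from the imprinted Dlk1-Dio3 cluster, whose miRNAs are typical of neurons.

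Mature sequences were taken from RefSeq (rat build GRCr8), which held 105 of the 117 names. The sequences of miRNAs that carried most of the reads, or that the regional comparison turned on, are given 5′ to 3′, with the seed (bases 2 to 8) in capitals. Their counts had been made on another build, so the genes named as hosts are those of GRCr8.
miR-1298: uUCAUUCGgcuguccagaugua
miR-1912-3p: cACAGAACaugcagugaga
miR-3552: aGGCUGCAggcccacuucccu
miR-1839-5p: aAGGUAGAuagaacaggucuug
miR-3068-5p: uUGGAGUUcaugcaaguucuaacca
miR-6331: cUUUGGUGgcuuaguucuuugugc
miR-1188-5p: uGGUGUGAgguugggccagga
miR-3547: uGAGCACCaccccucucucagau
miR-6329: aAUGUGACucagcuaucugaaca
miR-3085: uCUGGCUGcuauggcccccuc
The first 3 lie within Htr2c on its strand, beside miR-764 and miR-448, and miR-3552 was found there from RefSeq after its values had been seen. The RefSeq entry of miR-1839 is the Cajal body RNA Scarna15 and that of miR-3068 is the nucleolar RNA Snora58. miR-3547 lies within Baiap3 on its strand, miR-6329 opposite to Rdx, the radixin gene, and miR-1188-5p and miR-3085 lie within no annotated gene.

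No seed was shared among these sequences. Of the high-numbered miRNAs with a mean of at least 5 reads in a region, 29 had a sequence, and 0 of the 29 shared their seed with another rat miRNA of the table. Among the other miRNAs at that read level, 127 of 369 (34.4%) did. Over all names the shares were 3 of 105 (2.86%) and 164 of 550 (29.8%), and the 3 were miR-3065-5p, miR-3573-5p and miR-3596d. Members of a family, such as let-7, share a name, and this set was drawn by number, so the rule itself bears on this contrast. It is a description and no test. Both arms of miR-1843 were among those without a sequence. Length did not set the groups apart, with a median of 22 bases in both, and a first base of U was found in 37.9% of the 29 and 38.5% of the 369. The median GC content was 52.4% against 47.8%. Of the 29, 15 lay within a protein-coding gene on its strand, 1 within a long non-coding RNA on its strand, 3 opposite to a gene, 4 in a gene without a known strand and 6 in no gene.

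Detection was the first comparison. At least 1 read in any library was found for 68 of the 117 high-numbered miRNAs (58.1%), against 545 of the other 611 (89.2%). The remaining 49 (41.9%) had no read in 24 libraries, which allows up to 0.0633 CPM (counts per 1000000 miRNA counts, here 3 reads over all libraries, a limit that covers counting error only). Reads in all 24 libraries were found for 23 (19.7%), against 57.3% of the other miRNAs. A mean of at least 5 reads in a region was reached by 34 (29.1%, against 66.4%). Of these 34, 28 reached it in both regions, 5 in thalamus alone and 1 in cortex alone. A mean of at least 100 reads in a region was reached by 10 (8.55%, against 41.2%).

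The 34 detected miRNAs under that mean were close to the limit of counting. They held 462 reads together, none more than 95, and 10 of them rested on 1 read in all. A library held between 35 and 52 of the 117, with medians of 44 in sham cortex, 42 in TBI cortex, 43 in sham thalamus and 44.5 in TBI thalamus. At the depth of the shallowest library the expected medians were 32.45, 34.05, 36.35 and 35.85 in the same order. At equal depth both thalamus medians thus lay above both cortex medians, an order that the unthinned numbers did not show. The other 611 miRNAs had the same order at equal depth, with medians of 402, 411.5, 422.5 and 421.5.

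The 117 miRNAs gave 222805 of 47424242 miRNA reads. In sham cortex their share ran from 0.247% to 0.334% with a median of 0.297%. In TBI cortex it ran from 0.275% to 0.372% with a median of 0.307%. In sham thalamus it ran from 0.367% to 0.754% with a median of 0.409%, and in TBI thalamus from 0.352% to 1.52% with a median of 0.378%. The share was higher in the thalamus than in the cortex of the same rat in 12 of 12 rats, while the TBI and sham libraries of a region overlapped. The 1.52% of TBI rat 45 has a 95% Wilson interval of 1.51% to 1.54%, which covers counting error only. These shares depend on what else is sequenced: with miR-128-3p, the most abundant miRNA, taken out of the total, the medians were 0.388%, 0.381%, 0.494% and 0.439%. The share was then higher in cortex in sham rat 26 (0.474% against 0.426%) and TBI rat 63 (0.431% against 0.414%). In the other rats it stayed higher in thalamus.

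**Figure D1:**
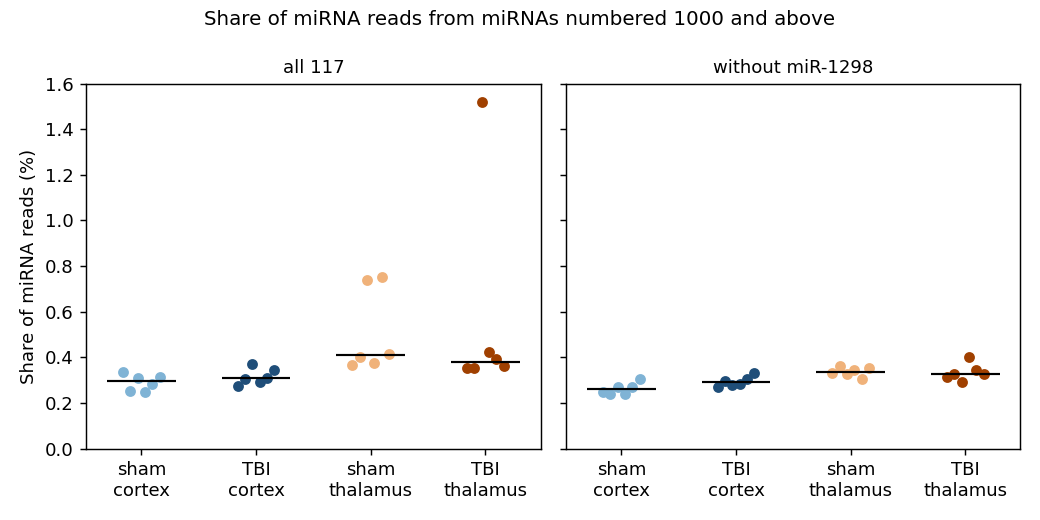
Share of miRNA reads (%) that came from the 117 high-numbered miRNAs, in each library (points) with the group median (line), left with all of them and right without miR-1298. The 3 thalamus libraries that stand above the rest on the left, up to 1.52%, fall among the others on the right, where no library exceeds 0.4%.

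One miRNA set the high shares. miR-1298 gave 80.8% of the high-numbered reads in the thalamus of TBI rat 45 (95% Wilson interval 80.5% to 81.2%) and at most 25.7% in any cortex library. Without it, the share ran from 0.239% to 0.304% in sham cortex, from 0.27% to 0.332% in TBI cortex, from 0.305% to 0.361% in sham thalamus and from 0.292% to 0.4% in TBI thalamus. It was then higher in the thalamus in 11 of 12 rats, all except TBI rat 63 (0.332% in cortex against 0.328%). The total still held miR-128-3p here, so this count of rats depends on what else is sequenced, as above.

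The 10 most abundant gave 95.2% of the high-numbered reads. When every library was weighted equally, miR-1843-5p gave 27.6% of them, miR-1839-5p 18.8%, miR-1298 15.7%, miR-3068-5p 7.01% and miR-6331 5.1%. miR-3099, miR-1843-3p, miR-3068-3p, miR-1224 and miR-1249 followed with 4.79%, 4.5%, 3.92%, 3.54% and 2.88%. Levels are given in CPM, counts per 1000000 miRNA counts of the library, in which 1 read was worth between 0.242 and 1.91 CPM. As all mature miRNAs are of like length, CPM needs no correction for length, but ligation and PCR favor some sequences, so levels of different miRNAs compare only roughly.

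miR-1843-5p had the largest mean share of the high-numbered reads. It ran from 918 to 1168 CPM in sham cortex (median 1006) and from 835 to 1112 in TBI cortex (median 949). In sham thalamus it ran from 867 to 1232 CPM (median 1025) and in TBI thalamus from 654 to 1169 (median 801). All 4 groups overlapped. It passed in the regional comparison of sham rats only without sham rat 55, where it was lower in thalamus (log2 fold change -0.58, adjusted p = 0.00639 in edgeR). miR-1839-5p, whose precursor is Scarna15, ran from 419.7 to 589 CPM in sham cortex (median 481) and from 655 to 913 in sham thalamus (median 745), without overlap between the regions, as was the case for 18.9% of all miRNAs tested. This holds in CPM, before the scaling between libraries that edgeR applied. Sham rat 50 had 575 CPM in cortex and 655 in thalamus. Divided by its scaling factors (0.9187 and 1.25), cortex was the higher there, so the regions then overlapped. In TBI rats miR-1839-5p ran from 548 to 750.2 CPM in cortex (median 648) and from 599 to 1104 in thalamus (median 889), where the regions overlapped. Its regional log2 fold change was 0.30 in sham (SE 0.18, adjusted p = 0.226 in edgeR) and 0.38 in TBI (SE 0.17, adjusted p = 0.145 in edgeR), past the threshold in neither.

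miR-3068-5p and miR-3068-3p are the arms of 1 precursor, Snora58. The 5p arm had medians of 194 CPM in sham cortex, 239 in TBI cortex, 343 in sham thalamus and 309 in TBI thalamus, and the 3p arm of 99.5, 146, 181 and 169. The level was higher in the thalamus of the same rat in 11 of 12 rats for the 5p arm and in 10 of 12 for the 3p arm. Neither arm passed the regional test in either group of rats (adjusted p from 0.0934 to 0.548 in edgeR). miR-6331 was higher in the thalamus in 12 of 12 rats, with a median of 145 CPM and at most 183 in sham cortex against 209 to 268 in sham thalamus, and 138 to 172 in TBI cortex against 185 to 248 in TBI thalamus. It did not pass the regional test either, at 0.26 in sham (SE 0.18, adjusted p = 0.285 in edgeR) and 0.44 in TBI (SE 0.16, adjusted p = 0.0589 in edgeR) on the log2 scale. That test left out the pairing of regions within a rat. With the rat as a block, miR-6331 passed in TBI rats (0.44, SE 0.15, adjusted p = 0.0213 in edgeR). It did not in sham rats (0.27, SE 0.19, adjusted p = 0.332 in edgeR). These counts of rats rest on CPM without TMM, in which 16.1% of the 372 miRNAs tested in both groups were higher in thalamus in 12 of 12 rats, 25.3% in at least 11 and 35.5% in at least 10. miR-3099, miR-1224, a miRNA from an intron of Vwa5b2, and miR-1249 had TBI thalamus libraries between 135 and 464 CPM, between 73.2 and 255 CPM and between 47.8 and 342 CPM.

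**Figure D2:**
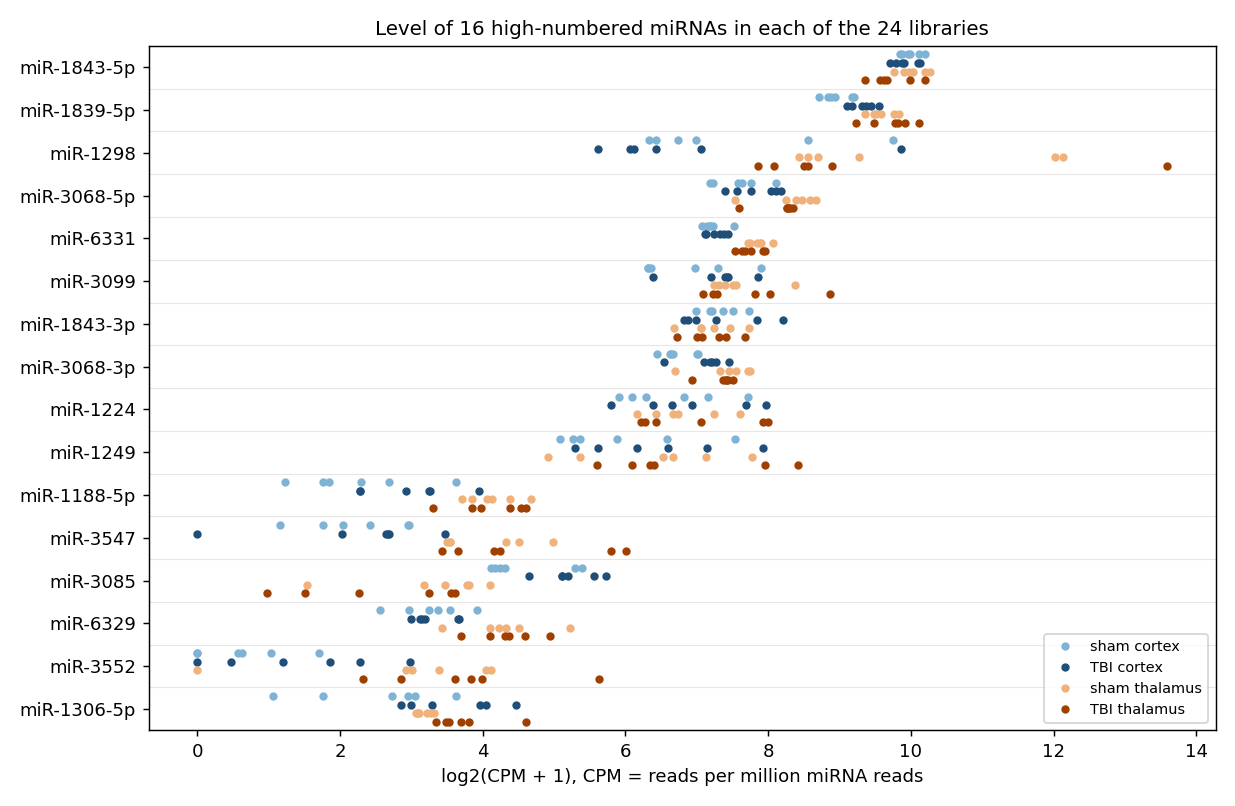
Level of 16 high-numbered miRNAs, as log2(CPM + 1) on the horizontal axis, in each of the 24 libraries (points, colored by group). The 10 most abundant are at the top, where miR-1298 spans the widest range, from 48.2 to 12309.7 CPM, and the 6 below are weaker miRNAs named in the regional or the injury comparison.

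The regional comparison asked which miRNAs differed between thalamus and cortex, first in sham rats and then, in other rats and libraries, after TBI. For thalamus over cortex in sham rats, the adjusted p was under 0.05 in the quasi-likelihood test of edgeR for 89 of 375 miRNAs (23.7%), 48 of them higher (12.8%) and 41 lower (10.9%). Of the 22 high-numbered miRNAs tested, 3 passed (13.6%): miR-1188-5p and miR-3547 were higher in thalamus and miR-3085 was lower. In TBI rats 80 of 386 (20.7%) passed, 50 higher (13.0%) and 30 lower (7.77%), and 5 of the 25 high-numbered ones (20.0%): the same 3 in the same direction, and miR-3552 and miR-6329, both higher in thalamus. The share that passed was thus near the background in TBI and under it in sham. A miRNA was tested if at least 6 of the 12 libraries exceeded 5.32 CPM in sham or 4.81 CPM in TBI, and 14 of the 22 and 17 of the 25 did so in all 12. Some others passed this filter through the region where they were high, so their calls are given as values and are no support for a regional pattern of the set: miR-1188-5p and miR-3547 exceeded it in 6 thalamus libraries and in 2 cortex libraries in sham and 4 in TBI, and miR-3552 in 5 and 1 in TBI. miR-3085 exceeded it in 6 cortex libraries and in 5 thalamus libraries in sham and 3 in TBI. The median log2 fold change of the high-numbered miRNAs was 0.24 in sham and 0.28 in TBI, beside 0.08 and 0.09 for all miRNAs tested.

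The direction in these 12 sham libraries depended on the scaling. With scaling by library size in place of trimmed mean of M-values (TMM), 147 of 375 miRNAs passed in sham rats, 125 higher and 22 lower. Of the 22 high-numbered ones tested, 9 passed. The median of all fold changes moved from 0.08 to 0.45. Small regional differences are therefore read against the median of all miRNAs. The 3 high-numbered miRNAs that passed in both groups kept their direction under either scaling.

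miR-3085 was the only one of the 3 that was higher in cortex. Its 6 cortex libraries were enough to meet the filter on low counts, so its calls are given as values as well. Its counts ran from 14 to 108 reads in a cortex library and from 1 to 53 in a thalamus library. It ran from 16.4 to 40.9 CPM in sham cortex (median 18.3) and from 1.91 to 16.2 in sham thalamus (median 11.5). In TBI rats it ran from 24.2 to 51.9 CPM in cortex (median 34.7) and from 0.965 to 11.2 in thalamus (median 6.13). The regions overlapped in neither group, as was the case for 18.9% of all miRNAs tested in sham rats and 12.4% in TBI rats, and cortex was higher in 12 of 12 rats. In CPM, 5.38% of the 372 miRNAs tested in both groups were higher in cortex in 12 of 12 rats. The log2 fold change was -1.50 in sham (SE 0.29, adjusted p = 0.000944 in edgeR) and -2.53 in TBI (SE 0.41, adjusted p = 0.000709 in edgeR). Both passed when any 1 rat was left out.

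miR-1188-5p, which belongs to the Dlk1-Dio3 cluster, was higher in thalamus. It ran from 1.34 to 11.4 CPM in sham cortex (median 3.27) and from 12.1 to 24.5 in sham thalamus (median 16.1), with no overlap in CPM. Divided by the TMM factors, the cortex of sham rat 55 (11.4 CPM, factor 0.9837) lay above the thalamus of sham rat 38 (12.1 CPM, factor 1.293). The regions then overlapped. In TBI rats miR-1188-5p ran from 3.84 to 14.5 CPM in cortex (median 7.52) and from 8.9 to 23.4 in thalamus (median 17.3), with overlap. Thalamus was higher in 12 of 12 rats in CPM, as for 16.1% of the 372 miRNAs tested in both groups. The log2 fold change was 1.62 in sham (SE 0.37, adjusted p = 0.00365 in edgeR) and 1.18 in TBI (SE 0.37, adjusted p = 0.0343 in edgeR). The sham call held in all 6 fits that left out 1 rat, whereas the TBI call held in 1 of 6 (adjusted p from 0.0343 to 0.134 in edgeR). It was also lost with relative log expression (RLE) scaling and with looser filters on low counts, and passed with the rat as a block, since each rat gave both regions (adjusted p = 0.00113 in edgeR). The other arm, miR-1188-3p, had 1 read in all libraries together.

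miR-3547 was also higher in thalamus. Its counts were low, from 0 to 21 reads in a cortex library and from 16 to 86 in a thalamus library. It ran from 1.23 to 6.82 CPM in sham cortex (median 3.74) and from 10.3 to 30.6 in sham thalamus (median 14.9). In TBI rats it ran from 0 to 10.1 CPM in cortex (median 5.33) and from 9.74 to 63.2 in thalamus (median 17.4). Thalamus was higher in 11 of 12 rats, all except TBI rat 24. In CPM, 25.3% of the 372 miRNAs tested in both groups were higher in thalamus in at least 11 rats. The log2 fold change was 1.86 in sham (SE 0.46, adjusted p = 0.00686 in edgeR) and 2.50 in TBI (SE 0.67, adjusted p = 0.0146 in edgeR). The TBI call was lost without TBI rat 56 (adjusted p = 0.0612 in edgeR) and with the rat as a block (adjusted p = 0.0629 in edgeR).

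miR-6329 passed in TBI rats. Its CPM was higher in the thalamus of 12 of 12 rats, as for 16.1% of the 372 miRNAs tested in both groups. In sham rat 50 it had 9.4 CPM in cortex and 9.82 in thalamus. Divided by the TMM factors of these libraries (0.9187 and 1.25), cortex was the higher there. miR-6329 ran from 7.01 to 11.7 CPM in TBI cortex (median 8.04) and from 12.0 to 29.7 in TBI thalamus (median 19.2), with no overlap in CPM, as was the case for 12.4% of all miRNAs tested. Divided by the TMM factors, the cortex of TBI rat 63 (11.7 CPM, factor 0.9446) lay above the thalamus of TBI rat 52 (12.0 CPM, factor 1.039). The regions then overlapped. The log2 fold change was 1.07 (SE 0.27, adjusted p = 0.0112 in edgeR). In sham rats it ran from 4.88 to 14.1 CPM in cortex and from 9.82 to 36.3 in thalamus, and the log2 fold change was 0.67 (SE 0.34, adjusted p = 0.174 in edgeR). The TBI call was lost without TBI rat 56 (adjusted p = 0.0658 in edgeR). Whether the regional difference itself changed with injury is the interaction given further on, which no miRNA passed.

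**Figure D3:**
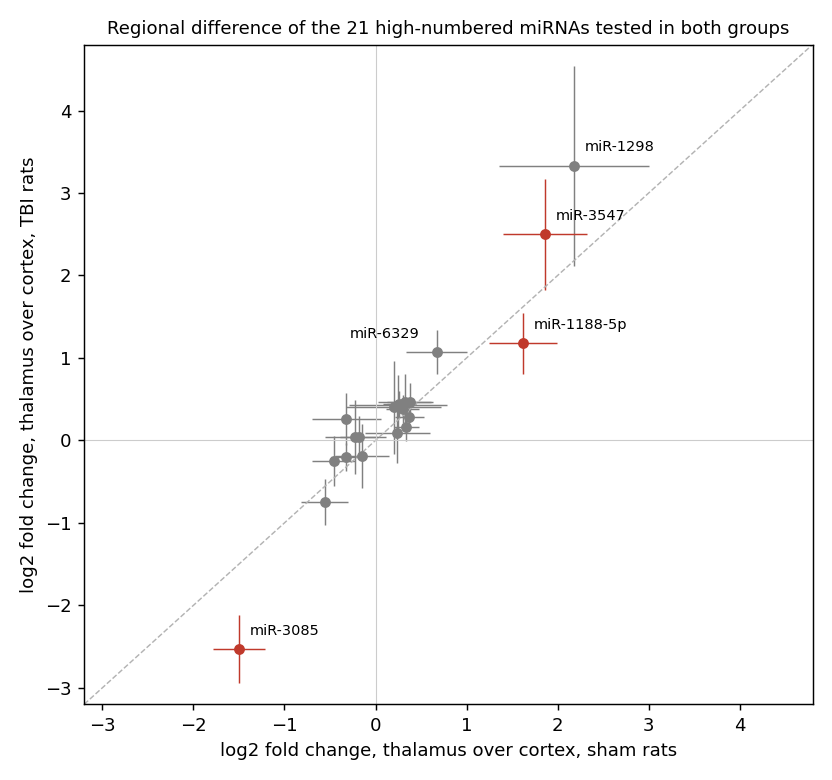
Regional log2 fold change, thalamus over cortex, in sham rats (horizontal) and TBI rats (vertical) of the 21 high-numbered miRNAs tested in both groups, with standard errors as bars. The 3 that passed in both groups are red, the dashed line marks equal differences, and miR-1298 has the longest bars, with SE of 0.82 and 1.21.

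Of the 21 high-numbered miRNAs tested in both groups of rats, 18 had the same sign in both (85.7%), against 310 of all 372 (83.3%). The sign of the regional difference was thus about as stable as that of miRNAs in general. Those that passed in neither group had log2 fold changes between -0.56 and 0.38 in sham rats and between -0.75 and 0.85 in TBI rats, apart from miR-1298. With the rat as a block, 3 of 22 passed in sham and 8 of 25 in TBI, beside 80 of all 375 and 152 of all 386 miRNAs. The 8 were miR-1188-5p, miR-1298, miR-3085, miR-3552, miR-3577, miR-6325, miR-6329 and miR-6331, of which miR-3085 and miR-3577 were lower in thalamus.

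Markers of several cell types moved with the regional comparison. The 3 oligodendrocyte miRNAs (miR-219a-5p, miR-219a-2-3p and miR-338-3p) were all higher in thalamus in both groups of rats, with summed levels of 2759.6 to 3499 CPM in sham cortex and 11856 to 15202 in sham thalamus. Their sum was 3401 to 4584 CPM in TBI cortex and 12473 to 17762 in TBI thalamus. Of the 3 neuronal miRNAs, miR-128-3p was lower in thalamus in both groups, miR-9a-5p in sham and miR-124-3p in TBI. Among miRNAs of ciliated cells, miR-34b-5p and miR-34c-5p were higher in thalamus in both groups, while miR-449a-5p had at most 3.86 CPM anywhere. Of the 3 muscle miRNAs, miR-1-3p was lower in thalamus, at -0.80 in sham (adjusted p = 0.00348 in edgeR) and -0.93 in TBI (adjusted p = 0.0243 in edgeR) on the log2 scale. So was miR-133a-3p, at -0.96 (adjusted p = 0.0211 in edgeR) and -1.54 (adjusted p = 0.005 in edgeR), while miR-206-3p passed in neither group. The summed level of the 3 ran from 402 to 843 CPM in sham cortex, 474 to 672 in TBI cortex, 296 to 697 in sham thalamus and 121 to 475 in TBI thalamus. Of the 3 choroid plexus miRNAs, miR-448-3p, which lies in Htr2c, was higher in thalamus in both groups. Its log2 fold change was 2.21 in sham (adjusted p = 0.0246 in edgeR) and 3.13 in TBI (adjusted p = 0.0213 in edgeR). miR-204-5p and miR-211-5p passed in neither group. None of the leukocyte and red cell miRNAs tested passed between regions. The part of these cells in the regional differences was not tested. In bulk tissue, fewer cells of a type and less RNA per cell cannot be told apart.

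The Htr2c miRNA miR-1298 differed widely between rats. It had 12309.7 CPM in the thalamus of TBI rat 45, 4492 in that of sham rat 50 and 4132 in that of sham rat 34. The other 9 thalamus libraries ran from 232 to 615 CPM. In cortex it had 926 CPM in TBI rat 45, 859 in sham rat 26 and 375 in sham rat 34, and from 48.2 to 132 in the other 9. The high libraries thus occurred in both sham and TBI rats and in both regions.

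miR-3552 and miR-1912-3p followed with far lower levels. miR-3552 had 48.4, 16.4 and 15.6 CPM in the thalamus of rats 45, 34 and 50 and from 0 to 14.9 in the other thalamus libraries, the next highest being close to rats 34 and 50, and at most 6.93 in cortex, again in rat 45. miR-1912-3p had 32.2 CPM in the thalamus of rat 45, 11.6 in that of rat 34 and 8.48 in that of rat 50, which were 113, 48 and 19 reads. The other 9 thalamus libraries had at most 2 reads each, and the cortex libraries at most 3. miR-1912-5p had no read in any library. The same 3 libraries led for miR-448-3p of the same gene, which lies outside the rule and reached 705 CPM in rat 45. miR-764-5p of Htr2c was also highest in these 3, whereas miR-448-5p and miR-764-3p, with up to 50.1 and 18.2 CPM in thalamus, did not have all 3 as their highest libraries.

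**Figure D4:**
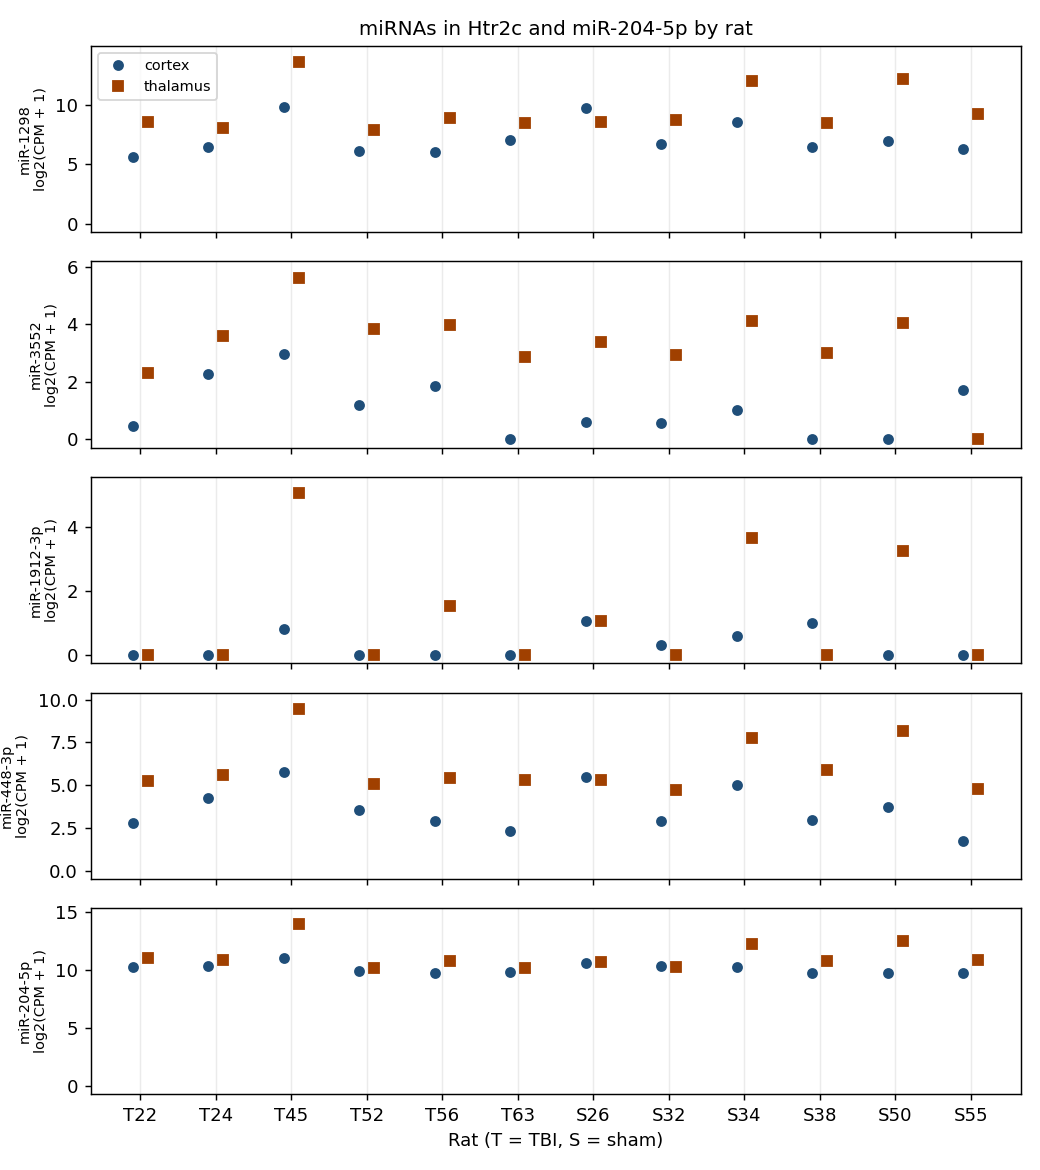
Level of the Htr2c miRNAs miR-1298, miR-3552, miR-1912-3p and miR-448-3p and of miR-204-5p, as log2(CPM + 1) on the vertical axis, in the cortex (circles) and thalamus (squares) of each rat (T, TBI; S, sham). The thalamus libraries of T45, S34 and S50 are the 3 highest in every panel.

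These 3 libraries were also the highest for choroid plexus miRNAs outside Htr2c. miR-204-5p, which is abundant in that tissue, had 15965 CPM in the thalamus of TBI rat 45, 5897 in that of sham rat 50 and 5032 in that of sham rat 34, against 1179 to 2162 in the other 9. In cortex, its highest libraries were TBI rat 45 with 2183 CPM and sham rat 26 with 1543, the same that led for miR-1298. Sham rat 34, which came next for miR-1298 in cortex, had 1280.2 CPM of miR-204-5p, below TBI rat 24 with 1334 and sham rat 32 with 1306. The summed level of the 3 choroid plexus miRNAs (miR-204-5p, miR-211-5p and miR-448-3p) ran from 1301 to 6245 CPM in sham thalamus and from 1222 to 16859 in TBI thalamus. The same 3 libraries ranked highest for 14 of the 390 miRNAs tested in thalamus (3.59%), miR-1298, by which they were picked, included. The others in Htr2c or on the choroid plexus list were miR-3552, miR-204-5p, miR-211-5p, miR-448-3p and miR-764-5p. The rest were miR-34b-3p, miR-34c-3p, miR-34c-5p, miR-182, miR-199a-3p, miR-199a-5p, miR-425-3p and miR-484. The part of choroid plexus tissue in these levels was not tested. The miR-1298 reads per miR-204-5p read were between 0.762 and 0.821 in the 3 libraries and between 0.146 and 0.327 in the other 9 of thalamus.

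The 3 libraries bore on the tests of miR-1298. Its regional log2 fold change was 2.18 in sham rats (SE 0.82, adjusted p = 0.0653 in edgeR) and 3.33 in TBI rats (SE 1.21, adjusted p = 0.0646 in edgeR), and thalamus was higher in 11 of 12 rats, all except sham rat 26. Without TBI rat 45 the difference in TBI rats was 2.00 (SE 0.32, adjusted p = 0.000496 in edgeR), smaller but past the threshold, and with the rat as a block it was 2.36 (SE 0.35, adjusted p = 0.00113 in edgeR). In sham rats it passed without sham rat 26, at 3.33 (adjusted p = 0.00553 in edgeR), and with DESeq2 (adjusted p = 0.0348). It was smaller without sham rat 50, at 1.53 (adjusted p = 0.235 in edgeR), and 0.29 (SE 0.72, adjusted p = 0.795 in edgeR) without both sham rats 34 and 50, a setting chosen after the data had been seen. The regional log2 fold change of miR-3552 was 2.73 in TBI rats (SE 0.72, adjusted p = 0.0124 in edgeR). It was tested only because of its thalamus libraries and fell under the filter without rat 45, so this call adds nothing to the levels given above. In sham rats it fell under the filter, with at most 2 reads in a cortex library. Of the Htr2c miRNAs outside the rule, miR-448-3p passed in both groups of rats, as given above. miR-448-5p passed in sham rats, at 2.54 (adjusted p = 0.000721 in edgeR), with at most 7 reads in a cortex library.

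The injury comparison asked what differed between TBI and sham rats in each region. In cortex, 22 of 371 miRNAs tested (5.93%) passed, 11 higher and 11 lower, and 0 of the 20 high-numbered ones did in edgeR (1 at an unadjusted p under 0.05, as had 21.6% of all, and 0 in DESeq2). In thalamus, 2 of 390 (0.513%) passed, both higher in TBI, and 0 of 27 high-numbered ones did in edgeR (1 at an unadjusted p under 0.05, as had 5.13% of all, and 0 in DESeq2). The median log2 fold change was 0.15 in cortex and 0.07 in thalamus, beside 0.05 and -0.03 for all miRNAs tested. The standard errors of the high-numbered miRNAs had a median of 0.28 in cortex and 0.32 in thalamus, and 17 of 20 and 20 of 27 log2 fold changes were smaller than 0.5 in size. A count of 0 therefore does not show that these miRNAs were alike in TBI and sham. The split of the cortical calls over all miRNAs moved with the scaling, to 36 higher and 3 lower with library size and to 26 higher and 15 lower with DESeq2, and in each of these 0 high-numbered miRNAs passed.

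The smallest p in cortex belonged to miR-1843-5p, whose log2 fold change was -0.30 (SE 0.13, adjusted p = 0.179 in edgeR). Its TBI and sham libraries, given above, overlapped. miR-1306-5p, from a hairpin within Dgcr8, the gene of a subunit of the microRNA processor, came next. It ran from 1.08 to 11.4 CPM in sham cortex (median 6.18) and from 6.24 to 21.1 in TBI cortex (median 11.7), and its log2 fold change was 0.92 (SE 0.45, adjusted p = 0.244 in edgeR). The next values were 0.43 for miR-3085 (SE 0.24), -0.49 for miR-3559-3p (SE 0.29) and 0.21 for miR-3068-3p (SE 0.14), on the log2 scale, none past the threshold in edgeR.

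miR-1306-5p also had the smallest p in thalamus. It ran from 7.36 to 8.93 CPM in sham (median 8.00) and from 9.17 to 23.4 in TBI (median 11.2), so all 6 TBI libraries lay above all 6 sham libraries, as was the case in one direction or the other for 1.03% of miRNAs tested. This holds in CPM without TMM. Sham rat 55 had 7.64 CPM on 4 reads and a TMM factor of 0.7447, TBI rat 63 had 9.17 CPM and 0.9698. Divided by these factors, sham rat 55 lay above TBI rat 63, so the groups then overlapped. The log2 fold change was 0.66 (SE 0.24, adjusted p = 0.589 in edgeR). Libraries held 4 to 42 of its reads. It did not pass in any of the 12 fits that left out 1 rat (adjusted p from 0.307 to 0.983 in edgeR). The next values were 0.60 for miR-3072 (SE 0.33), -0.50 for miR-6319 (SE 0.32), -0.67 for miR-3085 (SE 0.45) and 0.74 for miR-3552 (SE 0.55), none past the threshold in edgeR.

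The injury difference of miR-1298 turned on single rats. It was 0.42 in thalamus (SE 1.04, adjusted p = 0.96 in edgeR) and -2.13 without TBI rat 45, and -0.54 in cortex (SE 0.86, adjusted p = 0.767 in edgeR) and 0.25 without sham rat 26. No direction can be read from these values. Its median in TBI was below that in sham in both regions, at 76.7 against 116 CPM in cortex and 368 against 514 in thalamus, with overlapping libraries.

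**Figure D5:**
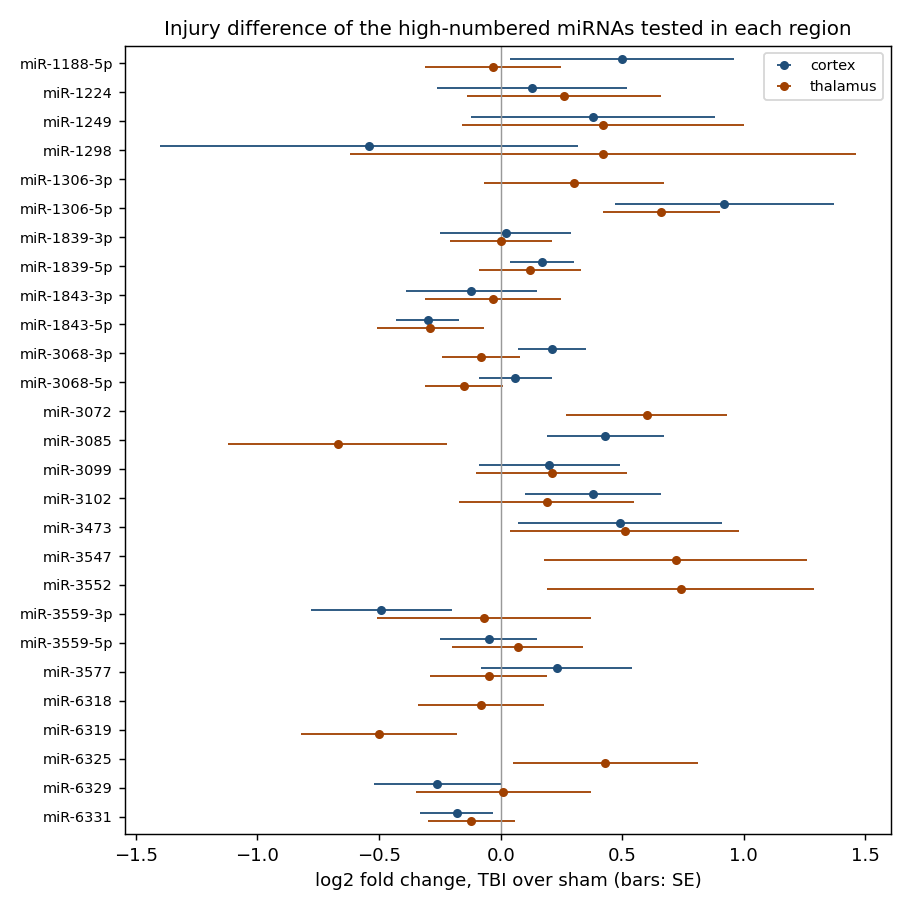
Injury log2 fold change, TBI over sham, of the high-numbered miRNAs tested in cortex (blue, 20) and thalamus (brown, 27), with standard errors as bars. None passed an adjusted p of 0.05, miR-1306-5p lies to the right in both regions and miR-1298 has the widest bars.

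The interaction asked whether the injury difference in thalamus departed from that in cortex. In 407 miRNAs tested 0 passed in edgeR (17, or 4.18%, at an unadjusted p under 0.05, and 0 in DESeq2), and 0 of the 28 high-numbered ones. The one with an unadjusted p under 0.05 was miR-3085, with an interaction of -1.06 on the log2 scale (SE 0.51, adjusted p = 1.0 in edgeR). It was higher in TBI than in sham cortex and lower in TBI than in sham thalamus by the medians given above, but neither injury difference passed. The TBI thalamus libraries held 1 to 38 of its reads.

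The 2 arms of a hairpin share 1 precursor, so the share of the 5p arm does not depend on how libraries are scaled to each other. Of 21 high-numbered hairpin names with both arms listed, 5 had a mean of at least 20 reads in each region. The median share of the 5p arm lay between 97.8% and 98.4% for miR-1839 in the 4 groups and between 85.6% and 87.2% for miR-1843. It lay between 62.9% and 65.3% for miR-3068, between 59.4% and 66.0% for miR-1306 and between 63.4% and 72.5% for miR-3559. The shares of miR-1306 varied most among libraries, from 15.4% to 87.5% in sham cortex, on 8 to 36 reads of both arms together.

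None of the 5 differed between regions in the exact two-sided sign-flip test over the 12 rats (smallest adjusted p = 0.656), where 2 of all 180 hairpins (1.11%) passed. For injury, 0 of the 5 and 0 of all 180 passed in either region in the exact two-sided permutation test (smallest adjusted p among the 5 = 0.881 in cortex and 1.0 in thalamus). The smallest p that these tests can give is 0.000488 for the regions and 0.00216 for injury. In cortex the smallest p over all 180 hairpins was this 0.00216, and its adjusted p in the exact permutation test was 0.39. The injury test over 180 hairpins could thus hardly pass any single one, and its 0 does not show that arm shares were alike. miR-3068 had the smallest unadjusted p between regions, 0.256 in the exact test, with a difference of 1.33 percentage points.

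Of the 34 with a mean of at least 5 reads, 6 entered none of these tests because they failed the filter on low counts in each: miR-1912-3p, miR-1949, miR-3120, miR-3550, miR-3583-3p and miR-6315. Apart from miR-1912-3p, none of them exceeded 9.55 CPM in any library. miR-3120, which lies in Dnm3, ran from 0 to 2.61 CPM in cortex and from 0.89 to 5.77 in thalamus. miR-1949, within Matr3, was the one that reached the mean of 5 reads in cortex alone, and ran from 1.02 to 8.06 CPM in cortex and from 0 to 5.06 in thalamus. miR-6328 entered the interaction alone, as it failed the filter in each regional and injury comparison. With a filter of a mean of 5 reads in a region, its injury log2 fold change was 1.27 in thalamus (SE 0.47, adjusted p = 0.506 in edgeR). In cortex it was 0.69 (SE 0.44, adjusted p = 0.353 in edgeR). No library held more than 15 reads of miR-6328.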

How the data were processed

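The counts were taken as the authors deposited them, 1 table per region of whole reads per miRNA and library. As the study's methods describe, the authors size-selected miRNA inserts, removed adapters during base calling, and mapped and annotated the sequences with RGSC3.4 and miRBase. The aligner, the mismatches it allowed and the treatment of reads that map to several places are not given in the sources used here, so counts of miRNAs that overlap other small RNAs, such as miR-1839 and miR-3068, are uncertain. The 444 tRNA counts of the cortex table and the CPM tables were not used. Groups and rat numbers came from the sample titles.

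The miRNA rows of both tables were joined by name. Each comparison was fitted over all miRNAs with the quasi-likelihood test of edgeR (version 4.0.16 in R 4.3.3, robust estimates) after filterByExpr and TMM, with Benjamini-Hochberg adjustment over all miRNAs tested and a threshold of 0.05. Standard errors were obtained as |log2 fold change| over the root of F. CPM was the count per 1000000 miRNA counts, without TMM. In the shallowest library a miRNA without reads may have up to 5.73 CPM (3 reads, counting error only). Arm shares were tested over all 180 hairpin names with a mean of at least 20 reads in each region, with an exact sign-flip test over 4096 sign patterns or an exact permutation test over 924 divisions. The scripts were tested on simulated data.

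The rat number pairs the 2 libraries of an animal. Deviations of the 2 libraries from their group means correlated with a median r of 0.38 over 12 rats (range -0.18 to 0.64, above 0.1 in 8). In TBI rats r ran from 0.3 to 0.64 and in sham rats from -0.18 to 0.49. No library was a duplicate of another in its group, since the chi-square per degree of freedom was at least 31.4 over 60 pairs. Alternatives were scaling by library size or RLE, other filters, DESeq2 (version 1.42.0), the rat as a block and leaving out rats.

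Named were the 5 high-numbered miRNAs with the smallest p in each injury comparison, those past 0.05 in both regional comparisons in the same direction, the 10 with the highest mean CPM, those in Htr2c and any whose arm share passed. Also named were miRNAs past 0.05 in 1 regional comparison, those in no fit, miR-3552 in Htr2c and miR-6328, all chosen after their values were seen. The set, the lists and the tests were chosen with earlier results of these data known.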

Additional observations from a re-analysis of the deposited data

Results flagged for a closer look

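A library was listed where its gap to the next of its group of 6 was a larger part of the group's range than Dixon's 95% critical value. This held for 22 of 140 groups examined, over 18 high-numbered miRNAs and their summed share. About 7 would be expected for independent, normally distributed values. Low counts, unequal depth and groups that share rats depart from that, so 22 against 7 does not measure an excess. The causes were not tested.

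Rat 45 was the high library of TBI rats in 6 cases. In its thalamus miR-1298 had 12309.7 CPM (next 476), miR-1912-3p 32.2 CPM (next 1.86), miR-3552 48.4 CPM (next 14.9) and the summed share was 1.52% (next 0.423%). In its cortex miR-1298 had 926 CPM (next 132), and miR-1912-3p had 0.77 CPM, which was 1 read where the other 5 had none. The choroid plexus miRNA miR-204-5p was highest in the same libraries.

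Thalamus libraries of TBI rats 56, 52 and 22 stood apart for other miRNAs. Rat 56, whose thalamus library held 538194 reads, was highest for miR-1306-3p with 14.9 CPM (next 7.12) and miR-6319 with 9.29 CPM (next 4.33). It was lowest for miR-3068-3p with 121 CPM (next 164), miR-3068-5p with 191 CPM (next 305) and miR-6315 with 0.0 CPM (next 2.85). Rat 52 was highest for miR-1306-5p with 23.4 CPM (next 13.0), miR-3102 with 43.0 CPM (next 15.1) and miR-3473 with 20.2 CPM (next 10.3), and rat 22 for miR-6325 with 20.5 CPM (next 11.1).

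Among sham rats, the thalamus of rat 55, the shallowest library with 523298 reads, was highest for miR-3559-3p with 40.1 CPM (next 16.2) and miR-3583-3p with 9.55 CPM (next 3.14). The cortex of rat 55 was highest for miR-3072 with 12.5 CPM (next 5.75) and miR-6328 with 5.69 CPM (next 2.95). The cortex of rat 38 was highest for miR-6331 with 183 CPM (next 149) and miR-3583-3p with 3.07 CPM (next 1.57), and the thalamus of rat 32 for miR-3099 with 332 CPM (next 186).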

How the results depend on the processing

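The single high-numbered miRNAs whose fold change is given, miR-6328 apart, had 463 values under other settings. Of these, 432 kept their direction and their side of the threshold, 12 lost and 13 gained the call, and 6 changed sign. These sign changes arose when 1 rat was left out and concerned miR-1298 in the cortical injury comparison (-2.04 to 0.25), miR-1298 and miR-3552 in the thalamic one (-2.13 to 1.13 and -0.01 to 1.05), miR-1298 in the interaction (-0.19 to 1.77, and -0.14 without rat 26) and miR-3068-3p between regions in TBI rats (-0.02 to 0.22). Over all comparisons of the named miRNAs, 32 of 88 fold changes changed sign in at least 1 such fit, none of them called.

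In sham rats the regional calls went from 89 to 147 with library-size scaling, to 56 without rats 34 and 50, a setting chosen after seeing the data, and to 80 with the replicate block. The high-numbered ones among them went from 3 of 22 to 9 of 22 with library-size scaling, beside 147 of all 375 miRNAs. Without a filter 5 of 56 passed, beside 102 of all 584. With DESeq2 5 of 22 passed, beside 111 of all 375. The high-numbered calls ran from 3 to 7 when 1 rat was left out (7 without rat 55). In TBI rats the replicate block, which uses the pairing of regions within a rat, gave 152 calls in place of 80 and 8 high-numbered ones in place of 5. Leaving out 1 rat gave 2 to 4 high-numbered calls (2 without rat 56). With the block the interaction kept 0 calls.

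The cortical injury calls of all miRNAs were 39 with library-size scaling, 41 with DESeq2 and 4 to 30 without 1 rat, and the thalamic ones were 3 with DESeq2 and 0 to 2 without 1 rat. High-numbered calls stayed at 0 in both under every setting run. Regional calls of arm shares ran from 0 to 4 without 1 rat, and high-numbered ones stayed at 0. The median share moved to 0.388% (sham cortex) and 0.381% (TBI cortex) without miR-128-3p in the total, and to 0.26% in sham cortex without miR-1298. With at least 5 reads, a median of 27.5 miRNAs was detected in either cortex group. Of the 34 with enough reads, 28 had a mean of at least 10, and for the weaker ones depth limits any statement.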
